A study of Mus musculus with 28 samples.

Results

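The Dlk1-Dio3 imprinted cluster was followed through its 5 member genes, Meg3, Dlk1, Rian, Mirg and Dio3, taken by name from a list of 37991 annotated genes counted in mouse embryonic stem cells (mESCs), and through the IG-DMR, 1 of 32 imprinting control regions (ICRs) for which 5-hydroxymethylcytosine (5hmC) reads were counted. The cells were J1 mESCs of the 129S4/SvJae strain in naive culture (N2B27 medium, LIF and inhibitors of MEK and GSK3), given a lentiviral vector with an empty hairpin (shEmpty) or a hairpin against Kap1 (shKap1), put under puromycin and harvested at day 5. RNA-seq covered wild-type (WT) cells, cells with Dnmt1, Dnmt3a and Dnmt3b deleted (DNMT TKO) and cells with Tet1, Tet2 and Tet3 deleted (TET TKO), with 3 libraries for each hairpin in WT and DNMT TKO cells and 2 for each hairpin in TET TKO cells. Every RNA library came from a transduced and selected culture, the replicates being independent experiments, and each genotype was a cell line of its own, the knockout lines having come from other laboratories, so that genotype and line history cannot be told apart. Antibody enrichment of 5hmC (hMeDIP-seq) and the ChIP-seq peaks of H3K4me3 and H3K27me3 came from WT cells alone.

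In the mouse, the cluster lies on the distal part of chromosome 12. The paternal chromosome expresses the protein-coding genes Dlk1, Rtl1 and, with a weaker bias, Dio3, while the maternal chromosome expresses the long non-coding RNAs Meg3 (also Gtl2), Rian and Mirg, which carry box C/D snoRNAs and many microRNAs. The choice is set by the IG-DMR, which is methylated on the paternal chromosome and unmethylated on the maternal one, where it acts as an enhancer-like element for Meg3. Reads were not split by parental chromosome here. Maternal and paternal therefore name the known parental origin below, and neither allelic expression nor allelic methylation was measured in any genotype. ZFP57, a KRAB zinc finger protein, binds a methylated hexamer at ICRs and brings in KAP1 (the product of Trim28), which in turn recruits the H3K9 methyltransferase SETDB1, while TET enzymes oxidise 5-methylcytosine to 5hmC.

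In the mm9 coordinates of the files, Begain (minus strand) opens the stretch examined here at 110270397 on chromosome 12 and Dio3 closes it at 111519307. Dlk1 lies at chr12:110691033-110701546, Meg3 at chr12:110779211-110809936, Rian at chr12:110842155-110899919, Mirg at chr12:110973191-110987665 and Dio3 at chr12:111517278-111519307, all on the plus strand. Of the 91 annotated genes in the stretch, 27 had at least 16 reads over the 16 RNA libraries, all 5 members among them, and 28 had no read in any library.

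The IG-DMR of the ICR list, chr12:110763966-110768609, is intergenic, between the end of Dlk1 and the start of Meg3. It holds 9 copies of the hexamer TGCCGC, the core of the motif known for ZFP57, counted on both strands (GCGGCA on the other), and 128 CG dinucleotides. Among 25270 consecutive windows of the same 4644 bases along chromosome 12, 21.6% held the hexamer at all and 0.0119% (3 windows) held 9 or more. The hexamer itself holds a CG, and the windows had a median of 32 CG dinucleotides, with 1.3% of them at 128 or more. The windows were not matched for CG content. Of the 32 ICRs, 21 held the hexamer, 3 of them with more copies than the IG-DMR. Of the 9 copies, 8 fell in the KAP1-bound region within the IG-DMR. The window with the densest run, 5 copies on the plus strand in 240 bases with 29 CG dinucleotides, is printed because it is the stretch of the control region in which KAP1 binding, an H3K4me3 region and the hexamer coincide. The hexamer is in capitals, and the sequence is the plus strand of NCBI m37 (mm9), chr12:110766460-110766699.
IG-DMR window: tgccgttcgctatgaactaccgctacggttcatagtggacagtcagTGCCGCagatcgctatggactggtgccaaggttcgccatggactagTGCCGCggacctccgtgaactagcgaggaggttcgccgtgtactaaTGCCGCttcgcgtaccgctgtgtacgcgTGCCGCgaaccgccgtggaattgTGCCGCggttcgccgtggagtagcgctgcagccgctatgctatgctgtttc
The amplicon that the study used for ChIP-qPCR and hMeDIP-qPCR at this locus overlaps the window. Its primers are shown because they fix where those assays read the region, and each matched chromosome 12 once, spanning chr12:110766448-110766578.
forward primer: tgtacacaatgctgccgttc
reverse primer: ctcgctagttcacggaggtc

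The Meg3 promoter is shown for comparison, since a KAP1-bound region (chr12:110778680-110779415) and an H3K4me3 peak both lie over it. From 250 bases before to 50 bases after the annotated start (chr12:110778961-110779260, plus strand, same build), it held the hexamer once, on the opposite strand and in capitals, with 13 CG dinucleotides.
Meg3 promoter: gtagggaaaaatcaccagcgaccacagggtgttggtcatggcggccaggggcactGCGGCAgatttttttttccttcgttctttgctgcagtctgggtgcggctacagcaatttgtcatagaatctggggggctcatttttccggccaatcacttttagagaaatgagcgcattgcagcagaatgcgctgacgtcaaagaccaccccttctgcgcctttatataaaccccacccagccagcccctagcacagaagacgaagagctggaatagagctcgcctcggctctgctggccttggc
The hexamer was found in 11.6% of 32851 RefSeq promoters of the same length (GRCm38.p6), and in neither the Dlk1 nor the Dio3 promoter of mm9.

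The knockdown was checked first. Levels are given as CPM (read counts scaled to a library of 1e6 reads with TMM). Trim28 lay between 1627 and 2086 CPM in the 8 shEmpty libraries and between 149 and 506 in the 8 shKap1 libraries, so that the groups did not overlap. The decrease was 10.6-fold in WT, 4.37-fold in DNMT TKO and 11.1-fold in TET TKO cells, and it was weaker in DNMT TKO than in WT cells (difference of log2 fold changes 1.28 ± 0.21 SE, adjusted p = 0.000802). This difference in knockdown stands beside the comparisons of DNMT TKO with WT cells that involve shKap1 libraries, and its part in them was not tested. With shEmpty, Trim28 overlapped between these genotypes (1701-2086 and 1627-1991 CPM). Deleted genes kept part of their reads: with shEmpty, Dnmt3a was 3.04, Dnmt3b 2.64 and Dnmt1 1.65 lower on the log2 scale in DNMT TKO cells, Tet2 was 2.16 and Tet1 1.49 lower in TET TKO cells, and Tet3 had a log2 difference of -0.03 ± 0.16 there.

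The RNA libraries held 18108431 to 29373696 reads on genes. The naive pluripotency markers summed to 3944-4333 CPM in the shEmpty libraries of all genotypes and to 2540-3236 CPM in the shKap1 libraries, and of the 9 tested 4 were called down in WT, 1 in DNMT TKO and 2 in TET TKO cells, against 6.54%, 2.42% and 4.46% of all genes. Feeder fibroblast markers were low, with sums over shEmpty and shKap1 libraries of 3.39-4.45 and 3.15-5.54 CPM for WT, 5.69-8.33 and 11-11.6 CPM for DNMT TKO, and 7.47-7.66 and 4.98-5.28 CPM for TET TKO. The 2-cell-like markers went from 11.3-22 to 179-199 CPM in WT, from 5.43-16.8 to 53.2-123 CPM in DNMT TKO and from 7.85-8.88 to 532-552 CPM in TET TKO cells on knockdown, and in WT cells the neural markers went from 38.5-48.6 to 103-123 CPM, the mesoderm markers from 24.7-29.3 to 11.2-14.0 CPM and the trophoblast markers from 37.5-53.3 to 58.7-60.5 CPM, while the primitive endoderm markers overlapped (14.0-18.6 and 15.2-17.3 CPM). In DNMT TKO cells the mesoderm markers went from 22.6-26.4 to 10.8-14.8 CPM, the primitive endoderm markers from 7.46-10.1 to 12.3-15.9 CPM and the neural markers from 85.6-105.3 to 105.4-134 CPM, while the trophoblast markers overlapped (18.2-25.7 and 7.43-23.4 CPM). In TET TKO cells the mesoderm markers went from 26.2-26.6 to 17.4-21.1 CPM, the primitive endoderm markers from 15.0-16.9 to 17.4-17.9 CPM, the neural markers from 59.7-60.1 to 75.3-84.2 CPM and the trophoblast markers from 62.6-67.0 to 53.5-53.7 CPM. With shEmpty, DNMT TKO cells were thus above WT cells in the neural sum and below them in the trophoblast and primitive endoderm sums, and TET TKO cells were above WT cells in the neural and trophoblast sums. The feeder sum was above WT in both knockouts, and the 2-cell-like sum was below WT in TET TKO cells. The naive sum was above WT in DNMT TKO cells (4245-4333 against 3944-4180 CPM). Singly, in WT cells 1 of 7 primitive endoderm markers was called up and 2 down, and 2 of 5 trophoblast markers up and 1 down. Of 6 mesoderm markers 0 were up and 2 down, and of 4 neural markers 2 up and 0 down. All genes had 10.8% up and 6.54% down. In TET TKO cells 0 of 7 primitive endoderm and 0 of 5 trophoblast markers had an adjusted p below 0.05 (edgeR). The mesoderm list had 2 of 6 and the neural list 2 of 4, against 30.4% of all genes. These summed levels moved with the knockdown or the genotype, as the changes of the members below did, and their part in those changes was not tested. In bulk RNA, fewer cells of a type and less RNA per cell cannot be told apart.

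To ask how the loss of KAP1 moves an imprinted cluster when no Dnmt or Tet gene is deleted, shKap1 was compared with shEmpty in WT cells. Meg3 and Dlk1 rose and Dio3 fell by more than 2-fold, and Rian rose just short of 2-fold, whereas the values of Mirg overlapped between the groups. A gene was called when its adjusted p (edgeR quasi-likelihood test, Benjamini-Hochberg over 20321 genes) was below 0.05 and its change at least 2-fold. By this rule 3 of the 5 members were called, 2 up and 1 down, against 17.4% of all genes (10.8% up and 6.54% down), and 4 of 5 had an adjusted p below 0.05, against 45.7%. The libraries of the hairpins did not overlap for 4 of 5, as for 54.4% of all genes. The median log2 change of the members was 0.96, and that of all genes -0.01.

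Meg3, the maternally expressed RNA next to the IG-DMR, was at 309, 264 and 261 CPM in the 3 WT shEmpty libraries and at 638, 584 and 565 CPM in the 3 shKap1 libraries. Every shKap1 library was above every shEmpty library, and the change was 2.14-fold (log2 1.10 ± 0.11 SE, adjusted p = 1.58e-06). Rian, the host of the C/D snoRNA array, went from 441, 352 and 355 CPM to 798, 710 and 719 CPM. The groups did not overlap, and the change was 1.94-fold (log2 0.96 ± 0.12, adjusted p = 1.4e-05), or 1.07 on the log2 scale, past the 2-fold limit, without WT shEmpty replicate 1. Mirg, the microRNA host at the far end of the maternal transcripts, was at 25.4, 19.5 and 20.0 CPM with shEmpty and at 29.6, 28.1 and 23.5 CPM with shKap1. Its ranges overlapped, and its log2 change of 0.33 ± 0.15 did not pass the test (adjusted p = 0.0803).

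Of the paternally expressed genes, Dlk1, which encodes a transmembrane ligand-like protein of the Notch family, was close to silent. It had 8, 14 and 18 reads with shEmpty and 17, 28 and 28 with shKap1, or 0.44, 0.50 and 0.64 against 0.89, 1.21 and 1.49 CPM. Even at this depth the groups did not overlap (2.23-fold, log2 1.16 ± 0.29, adjusted p = 0.0029). Dio3, the deiodinase that inactivates thyroid hormone, moved the other way, from 5.00, 7.26 and 7.01 CPM to 1.36, 0.78 and 0.64 CPM. All 3 shKap1 libraries lay below the lowest shEmpty library, and the gene was 7.01-fold lower (log2 -2.81 ± 0.21, adjusted p = 9.12e-09).

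**Figure D1:**
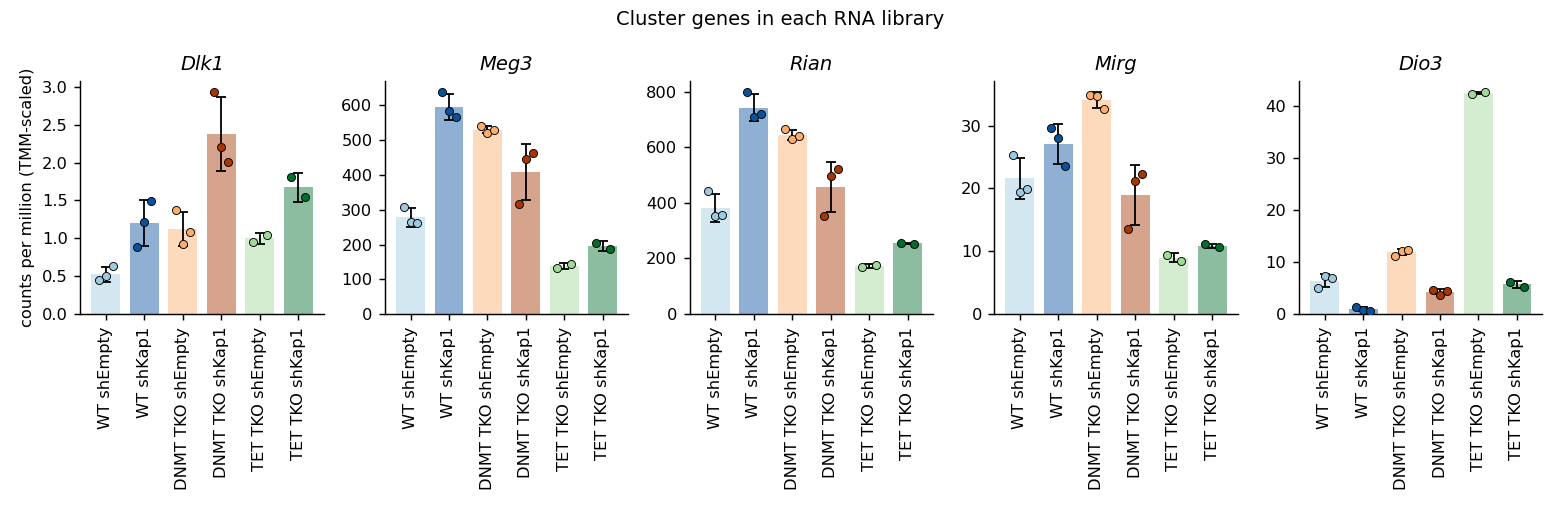
Level of each member gene in TMM-scaled CPM (y axis, a scale of its own for each gene) in the 6 groups of genotype and hairpin. Points are libraries (3, or 2 in TET TKO), bars are group means and error bars the SD. Meg3, Rian and Mirg share the order of their bars within each genotype, though the change of Mirg did not pass the test in WT or TET TKO cells. Dio3 is lower in every shKap1 group than in its shEmpty group and highest, at 42.4 and 42.7 CPM, in TET TKO shEmpty cells.

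In cells without the DNA methyltransferases, where Trim28 was less depleted, Meg3 and Rian fell on knockdown, opposite in sign to WT cells, and Mirg, which had not passed the test in WT cells, fell too. In DNMT TKO cells 2 of the 5 members were called, Dlk1 up and Dio3 down, against 12.5% of all genes (10.1% up and 2.42% down). All 5 had an adjusted p below 0.05, against 35.3%, and none had overlapping libraries, as for 44.7% of all genes. Here the median change of the members was -0.50 on the log2 scale, that of all genes 0.02.

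Meg3 was at 540, 522 and 529 CPM in DNMT TKO shEmpty libraries and at 316, 444 and 463 CPM in shKap1 libraries. It fell by 0.38 ± 0.11 on the log2 scale (adjusted p = 0.016), less than the 2-fold needed for a call, and the lowest value belonged to shKap1 replicate 1, the library with the least Trim28 of its group (327 CPM, against 448 and 506). Rian and Mirg were also lowest in that library, while Dio3 was highest there (4.71 CPM, against 3.72 and 4.53). A relation to the level of Trim28 was not tested. Rian fell by 0.50 ± 0.12 (adjusted p = 0.00448), from 630-665 CPM to 353, 495 and 521 CPM. Mirg had the largest decrease of the 3, from 34.9, 34.7 and 32.7 CPM to 13.5, 21.3 and 22.3 CPM (log2 -0.84 ± 0.15, adjusted p = 0.000308), and it reached the 2-fold of a call without shKap1 replicate 3. In each of the 3 RNAs every shKap1 library was below every shEmpty library.

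Dlk1 rose in DNMT TKO cells as well, with 27, 27 and 28 reads in shEmpty libraries and 61, 47 and 54 in shKap1 libraries (log2 1.09 ± 0.24, adjusted p = 0.00158). Its call was lost without shEmpty replicate 2 (log2 0.96) or shKap1 replicate 1 (log2 0.92), with both adjusted p below 0.05. Dio3 fell from 11.2, 12.2 and 12.3 CPM to 4.71, 3.72 and 4.53 CPM, a 2.75-fold decrease with no overlap (log2 -1.46 ± 0.16, adjusted p = 2.09e-06).

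The difference between the knockdown effects of DNMT TKO and WT cells was tested as an interaction. It was called for 4 of the 5 members, 1 higher and 3 lower in DNMT TKO cells, against 7.14% of all genes (4.66% higher and 2.48% lower), and the same 4 had an adjusted p below 0.05, against 18.4%. The effect was lower in DNMT TKO cells by 1.48 ± 0.16 for Meg3 (log2, adjusted p = 1.47e-05), by 1.46 ± 0.17 for Rian (adjusted p = 3.6e-05) and by 1.17 ± 0.21 for Mirg (adjusted p = 0.000827), and it was higher by 1.35 ± 0.28 for Dio3 (adjusted p = 0.00221), where the decrease was the smaller one. Without DNMT TKO shKap1 replicate 1 the difference was -1.33 for Meg3, -1.30 for Rian and -0.98 for Mirg, the last below the 2-fold of a call at an adjusted p of 0.000274. For Dlk1 the effects differed by -0.07 ± 0.36 (adjusted p = 0.942). As given above, the same test found a weaker loss of Trim28 in DNMT TKO cells.

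In TET TKO cells, 1 of the 5 members was called on knockdown, Dio3, against 12.5% of all genes (8.05% up and 4.46% down), and 3 of 5 had an adjusted p below 0.05, against 30.4%. With 2 libraries a group, none of the 5 overlapped, as for 69.9% of all genes. The members' median log2 change was 0.50 and that of all genes -0.01. Meg3 rose from 133 and 144 CPM to 206 and 187 CPM (log2 0.50 ± 0.14, adjusted p = 0.0128). Rian rose from 169 and 177 CPM to 256 and 252 CPM (log2 0.55 ± 0.15, adjusted p = 0.0105). In both, the shKap1 libraries were above the shEmpty libraries, by less than 2-fold.

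Mirg was at 9.48 and 8.45 CPM with shEmpty and at 11.1 and 10.6 CPM with shKap1 in these cells, a change that did not pass the test (log2 0.28 ± 0.20, adjusted p = 0.334). Dlk1 went from 27 and 28 reads to 39 and 30 (log2 0.74 ± 0.30, adjusted p = 0.0741). Dio3 fell the furthest, from 42.4 and 42.7 CPM to 6.25 and 5.18 CPM, or 7.42-fold (log2 -2.89 ± 0.20, adjusted p = 6.19e-09).

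The knockdown effect of TET TKO cells was called different from that of WT cells for none of the 5 members, against 4.21% of all genes (2.08% higher and 2.13% lower), and for none with limma-voom or DESeq2. With edgeR, Meg3 passed the adjusted p alone, the effect being smaller in TET TKO cells by 0.60 ± 0.18 (adjusted p = 0.0486), against 9.69% of all genes, and it was the single member with an adjusted p below 0.05. The difference was -0.40 ± 0.19 for Rian (unadjusted p = 0.0515 from edgeR's fit over all genes, adjusted p = 0.217) and -0.08 ± 0.33 for Dio3 (adjusted p = 0.93).

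**Figure D2:**
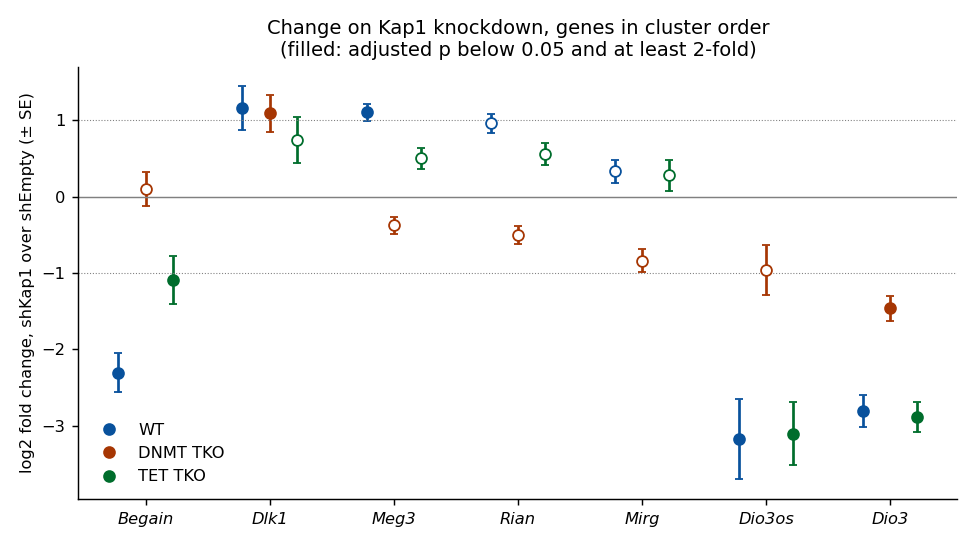
Log2 fold change of shKap1 over shEmpty (y axis, ± SE) for the members and for Begain and Dio3os in their order along the chromosome, with WT in blue, DNMT TKO in brown and TET TKO in green. Filled points passed an adjusted p of 0.05 and 2-fold (dotted lines). Meg3, Rian and Mirg are above 0 in WT and TET TKO and below 0 in DNMT TKO cells, though Mirg did not pass the test in WT or TET TKO cells. Dio3 is below -1 in all 3 genotypes.

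The genotypes differed before any knockdown. Between DNMT TKO and WT cells with shEmpty, 1 of the 5 members was called, Dlk1, which was higher, against 16.3% of all genes (8.23% higher and 8.05% lower). All 5 had higher values in DNMT TKO cells with an adjusted p below 0.05, against 43.6% of all genes in either direction, and with a median log2 difference of 0.88, that of all genes being -0.02. Meg3 was higher by 0.93 ± 0.11 (adjusted p = 8.77e-06), Dio3 by 0.88 ± 0.16, Rian by 0.75 ± 0.12 and Mirg by 0.66 ± 0.15. Dlk1 was higher by 1.05 ± 0.28 (adjusted p = 0.00563), and was under 2-fold without WT shEmpty replicate 1 (0.96), WT shEmpty replicate 2 (0.996) or DNMT TKO shEmpty replicate 1 (0.92).

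In TET TKO shEmpty cells the maternal RNAs were lower and Dio3 was higher than in WT. Here 4 of the 5 members were called, against 10.5% of all genes (5.66% higher and 4.80% lower), and all 5 had an adjusted p below 0.05, against 27.2%. Meg3 was lower by 1.00 ± 0.13 (adjusted p = 3.9e-05), Rian by 1.15 ± 0.14 (adjusted p = 2.48e-05) and Mirg by 1.26 ± 0.18 (adjusted p = 4.74e-05) on the log2 scale. Dio3 was 6.55-fold higher (log2 2.71 ± 0.17, adjusted p = 1.09e-09), with 42.4 and 42.7 CPM against 5.00 to 7.26 CPM in WT. Meg3 sat at the 2-fold limit, and without WT shEmpty replicate 1 its difference was -0.92, and without TET TKO shEmpty replicate 1 it was -0.95. Dlk1 was higher by 0.90 ± 0.31 (adjusted p = 0.0395), and by 1.06 without WT shEmpty replicate 3.

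With shKap1, 1 of the 5 members was called between DNMT TKO and WT cells, against 19.7% of all genes (11.3% higher and 8.37% lower), namely Dio3, which was higher by 2.22 ± 0.22 (adjusted p = 2.3e-07). The 3 non-coding RNAs were then lower in DNMT TKO cells, by 0.55 ± 0.11 for Meg3, 0.70 ± 0.12 for Rian and 0.51 ± 0.15 for Mirg (adjusted p from 0.000203 to 0.00987), the reverse of their order with shEmpty. All 5 had an adjusted p below 0.05, against 49.5%. Between TET TKO and WT cells with shKap1, the same 4 members were called and had an adjusted p below 0.05, against 11.1% of all genes called (6.10% higher and 4.97% lower) and 29.8% by adjusted p, with Meg3, Rian and Mirg lower by 1.60, 1.55 and 1.32 and Dio3 higher by 2.63 ± 0.24. These comparisons share their WT or knockout libraries with those above.

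Set in order over the 6 groups, Meg3 was highest in WT shKap1 (596 ± 37.8 CPM, SD, n = 3), followed by DNMT TKO shEmpty (530 ± 9.29, n = 3), DNMT TKO shKap1 (408 ± 79.8, n = 3), WT shEmpty (278 ± 26.8, n = 3), TET TKO shKap1 (196 ± 13.7, n = 2) and TET TKO shEmpty (139 ± 7.35, n = 2). No neighbours in this order overlapped in their libraries. For Dio3 the order ran from TET TKO shEmpty (42.5 ± 0.18 CPM, n = 2) over DNMT TKO shEmpty (11.9 ± 0.58, n = 3), WT shEmpty (6.42 ± 1.24, n = 3), TET TKO shKap1 (5.72 ± 0.75, n = 2) and DNMT TKO shKap1 (4.32 ± 0.53, n = 3) down to WT shKap1 (0.93 ± 0.38, n = 3), and the ranges of WT shEmpty and TET TKO shKap1 overlapped. Per kb of exon, Rian was the most abundant member in WT shEmpty cells (46.7 CPM per kb), above Meg3 (15.4), Mirg (6.80), Dio3 (3.16) and Dlk1 (0.093). In TET TKO shEmpty cells, Dio3 reached 20.9 CPM per kb, beside 21.1 for Rian.

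Meg3 and Rian kept close to each other over the 16 libraries (Pearson r = 0.991 of log2 CPM), as Meg3 and Mirg did (r = 0.911), while Meg3 and Dio3 had r = -0.649. These coefficients describe libraries that fall in 6 groups and share hairpins and genotypes. The ratio of Mirg reads to Rian reads had a lower mean with shKap1 than with shEmpty in each genotype, at 0.056 ± 0.001 (SD, n = 3) in WT shEmpty and 0.036 ± 0.003 in WT shKap1 libraries, 0.053 ± 0.002 and 0.041 ± 0.003 in DNMT TKO, and 0.052 ± 0.006 and 0.043 ± 0.001 (n = 2) in TET TKO libraries. The difference in this ratio was not tested. Among 13500 genes outside the cluster with at least 500 reads, the pattern most like that of Meg3 over the 16 libraries belonged to Ube3a (r = 0.939), followed by Gm11019 (0.937), Zdhhc20 (0.936), Zfp280c (0.924) and Chic1 (0.923).

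The other genes of the stretch were described by the same test. With the members, 7 of the 27 tested cluster genes were called up and 3 down in WT cells on knockdown, against 10.8% and 6.54% of all genes, 1 up and 1 down in DNMT TKO cells, against 10.1% and 2.42%, and 0 up and 3 down in TET TKO cells, against 8.05% and 4.46%. Most of the 27 are entries of 71 to 124 bases, many of them inside Rian or Mirg. Their reads can come from the same host RNAs, so the 27 are not separate genes and these counts are a description. The single gene up in DNMT TKO cells was Dlk1. In TET TKO cells edgeR called no cluster gene up, and the 2 genes up at an adjusted p below 0.05 were Meg3 and Rian.

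Dio3os, the antisense neighbour of Dio3, was called down in WT and TET TKO cells. It had 7, 15 and 26 reads in WT shEmpty and 1, 2 and 1 in WT shKap1 libraries (log2 -3.17 ± 0.53, adjusted p = 8.02e-05), and 70 and 59 against 5 and 6 in TET TKO libraries (log2 -3.10 ± 0.41, adjusted p = 1.48e-05). In DNMT TKO cells it had 20, 28 and 19 reads against 10, 6 and 16 (log2 -0.96 ± 0.33, adjusted p = 0.0314), short of the 2-fold of a call, which it passed without shEmpty replicate 3 (-1.10) or shKap1 replicate 3 (-1.26). Begain, a gene of the postsynaptic density at the proximal edge, fell in WT cells from 5.55, 4.80 and 5.77 CPM to 1.26, 1.08 and 0.91 CPM (log2 -2.30 ± 0.25, adjusted p = 6.65e-07) and in TET TKO cells by 1.09 ± 0.32 (adjusted p = 0.0142). In DNMT TKO cells its libraries overlapped, at 2.39-3.71 and 2.26-4.23 CPM, and the knockdown effect differed from that of WT by 2.40 ± 0.34 (adjusted p = 7.26e-05). Rtl1, the retrotransposon-derived gene antisense to part of the maternal transcripts, had no read in WT shEmpty and 1 to 2 reads per library in WT shKap1 cells, too few for a fold.

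Entries of SNORD113, the C/D snoRNA family in the introns of Rian, made up 3 of the 7 genes called up in WT cells, with log2 changes of 1.30 to 1.68. The entries belong to 1 multigene family inside another gene, so reads could be split between copies, and their values are uncertain. Of the 8 genes flanking the cluster (Wdr25, Wars, Slc25a29, Yy1, Evl, Ppp2r5c, Dync1h1 and Hsp90aa1), edgeR called none on knockdown in WT, DNMT TKO or TET TKO cells, against 17.4%, 12.5% and 12.5% of all genes. By adjusted p below 0.05 there were 3, 0 and 5 of the 8, against 45.7%, 35.3% and 30.4%, and by unadjusted p below 0.05 there were 4, 2 and 5. Among 19 regulators of imprints and of the IG-DMR, Trim28, the target of the hairpin, was the single one called down in each genotype. Dnmt3a and Tet3 were called up in WT cells (2.22-fold and 3.49-fold) and Dnmt3a in TET TKO cells (2.40-fold). The share called of all genes was 17.4% in WT, 12.5% in DNMT TKO and 12.5% in TET TKO cells. By adjusted p below 0.05 there were 13, 7 and 8 of the 19 regulators, against 45.7%, 35.3% and 30.4%. Zfp57, whose protein binds the IG-DMR, had a log2 change of -0.26 ± 0.10 in WT cells (adjusted p = 0.0516).

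Transposable elements (TEs) of the stretch were counted integrant by integrant. Of 1409 LINE, SINE, LTR and DNA integrants, 58 had at least 16 reads. On knockdown 13 of the 58 were called up in WT cells, against 12.1% of 123880 integrants in the genome, 15 in DNMT TKO cells, against 15.0%, and 7 in TET TKO cells, against 14.7%. These counts moved with the libraries and the tool. There were 8 calls in WT cells without WT shEmpty replicate 2 and 7 without WT shEmpty replicate 3, 9 in DNMT TKO cells without shEmpty replicate 1, shEmpty replicate 3 or shKap1 replicate 3, and 6, 5 and 2 calls in WT, DNMT TKO and TET TKO cells with DESeq2. None of the 58 was called down by edgeR, against 2.05%, 0.944% and 0.971%. By adjusted p alone, 4 of the 58 fell in DNMT TKO cells, all inside Meg3 or Rian, and none in WT or TET TKO cells, where 1 each was lower at an unadjusted p below 0.05.

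The calls fell in different places. Of the 25 integrants inside Meg3, Rian or Mirg, every one on the plus strand like its host gene, 7 were called up in WT cells and 0 in DNMT TKO or TET TKO cells, with median log2 changes of 0.96, -0.36 and 0.42. These elements share reads with their host RNA. An Lx7 fragment at the end of Rian (chr12:110899723-110899901), for instance, went from 244, 340 and 342 reads to 575, 540 and 510 in WT cells (log2 1.10 ± 0.16, adjusted p = 6.76e-11).

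Distal to Mirg lay an intracisternal A particle of 7071 bases, an IAPEz element flanked by IAPLTR1a_Mm repeats at chr12:111140176-111147246 on the plus strand, 361 kb from the Meg3 start. IAPEz elements are young endogenous retroviruses that KAP1 is known to repress. This element had 0 reads in each WT shEmpty library and 56, 92 and 99 in the WT shKap1 libraries, at least 101-fold higher when the shEmpty group is set to the 3 reads that a count of 0 allows. In DNMT TKO cells it went from 1, 0 and 3 reads to 288, 242 and 244 (log2 7.59 ± 0.35, adjusted p = 5.87e-101). In TET TKO cells it went from 0 and 1 reads to 73 and 65, a ratio of 185 with a 95% counting interval of 32.6 to 7350. Of the 1164 reads of this element, shEmpty libraries held 0 in WT, 4 in DNMT TKO and 1 in TET TKO cells. It thus passed the minimum of reads for the test through the shKap1 libraries, where it is high, and its adjusted p is to be read with that limit. The knockdown level was 9.05 to 13.8 CPM in DNMT TKO cells, above the 2.94 to 5.28 CPM of WT and the 3.34 and 3.38 CPM of TET TKO cells, a difference between genotypes that was not tested.

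A shorter IAPEz element with IAPLTR2_Mm repeats lay at chr12:111058720-111061408 on the minus strand. It had 0 reads in every WT and DNMT TKO shEmpty library. With shKap1 it had 1, 3 and 1 reads in WT cells, 10, 26 and 12 in DNMT TKO cells (at least 17.3-fold higher) and 10 and 8 in TET TKO cells, where the shEmpty libraries had 1 and 0. The WT call (adjusted p = 0.049) rests on 5 reads, and with the replicate block its adjusted p was 0.0611. All but 1 of the 72 reads of this element were in shKap1 libraries, through which it passed the minimum of reads for the test. Its WT reads alone were below that minimum, so the WT call in particular is to be read with that limit.

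**Figure D3:**
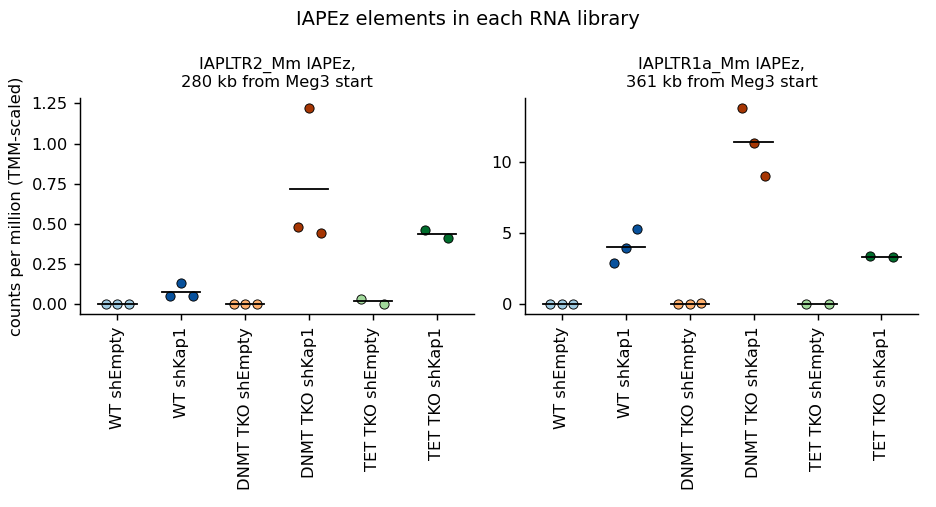
TMM-scaled CPM (y axis, a scale of its own for each element) of both IAPEz elements of the cluster in the 6 groups of genotype and hairpin. Points are libraries and lines group means. The shEmpty libraries lie at or near 0, and DNMT TKO shKap1 cells have the highest mean in each panel, with libraries at 9.05 to 13.8 CPM for the element 361 kb from Meg3.

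Between Mirg and the shorter IAPEz element, the 17 tested integrants (chr12:111014311-111051865) were all on the minus strand, the strand of that element. This stretch was singled out after its values were seen, so its counts are a description and are not set against the genome. Of the 17, 12 were called up in DNMT TKO, 4 in TET TKO and 2 in WT cells by edgeR, with median log2 changes of 2.52, 1.91 and 1.92. Apart from an Lx5 LINE of 5100 bases, they had 21 to 60 reads each over all RNA libraries. Some passed the minimum of reads for the test largely through shKap1 libraries, where they are high. L1M2c, for instance, had 19 of its 27 reads in DNMT TKO shKap1 and 0 in DNMT TKO shEmpty libraries. The counts of calls are to be read with that limit, and their difference between genotypes was not tested. DESeq2 called 5 of all 58 cluster integrants in DNMT TKO cells, so most of the 12 calls were not made by that tool. The deepest was an Lx5 LINE of 5100 bases (chr12:111029402-111034501), with 18, 23 and 19 reads in DNMT TKO shEmpty and 79, 92 and 85 in shKap1 libraries (log2 2.21 ± 0.28, adjusted p = 9.52e-14). In WT cells it went from 6, 9 and 10 reads to 47, 13 and 17, and without WT shKap1 replicate 1 its change was 1.11 (adjusted p = 0.0509).

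Chromatin marks of WT cells, which carry no hairpin in the labels, split the genes of the cluster. With a window of 1 kb on either side of each start, H3K4me3 peaks lay at Begain, Dlk1, Meg3, Dio3os and Dio3 in both replicates, and H3K27me3 peaks at the same genes except Meg3. Rtl1, Rian and Mirg had neither mark at their annotated starts. The H3K27me3 regions at Dlk1 scored 365 and 610 and those over Dio3 and Dio3os 359 and 748, against medians of 99 and 112 in the replicate lists, at percentiles of 96.1 to 98.5 of their lists. The H3K4me3 peak at Meg3 scored 732 and 1508, against medians of 350 and 376. At the IG-DMR, replicate 1 had 1 H3K4me3 peak (score 194) and replicate 2 had 4 (highest score 620), and neither replicate had an H3K27me3 region.

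To follow DNA hydroxymethylation, 5hmC reads at the IG-DMR were set against input reads of the same cells. In replicate 1 the shEmpty 5hmC library had 57 reads there, 7.29 CPM of the reads in the counted regions (95% Wilson interval 5.62 to 9.44), and the shKap1 library 175 reads, 19.9 CPM (17.1 to 23.0). The inputs had 81 and 94 reads, 17.7 and 14.4 CPM. The log2 ratio of 5hmC to input was thus -1.27 with shEmpty and 0.45 with shKap1, and its change was 1.72, with a 95% counting interval of 1.12 to 2.33. There was 1 library per condition, so this interval covers counting error alone and no test was made. The labels and file names of replicate 2 give its 4 libraries different roles, and they were put in no group. The share of counted reads in H3K4me3 regions was 19.2% and 17.6% in the inputs and 7.88% and 9.50% in the 5hmC libraries of replicate 1, and in replicate 2 it was 6.25% and 7.19% in the libraries that the file names give as 5hmC (labelled input shEmpty and 5hmC shEmpty) and 19.3% and 18.5% in those that they give as input. The change in replicate 2 was 1.12 read by its file names, whose roles give shares like those of replicate 1, and -1.12 read by its labels, whose roles do not.

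By size of change the IG-DMR was number 5 of the 28 ICRs with at least 10 input reads, whose median change was 0.91. All 4 regions above it had fewer than 50 input reads. Of the 28, 46.4% changed by at least 2-fold upwards, and 13 had an interval above 0 and none below 0. The 16 ICRs that overlap a KAP1-bound region had a median of 1.30, and the 12 without had a median of 0.46. Changes were above 0 across region types in this pair of libraries, with medians of 0.39 over 27830 H3K4me3 regions, 0.27 over 19072 H3K27me3 regions and 0.64 over 25992 KAP1-bound regions, and the value of the IG-DMR is to be read against those shifts. Scaled to the reads in all ICRs, its change was 1.01.

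**Figure D4:**
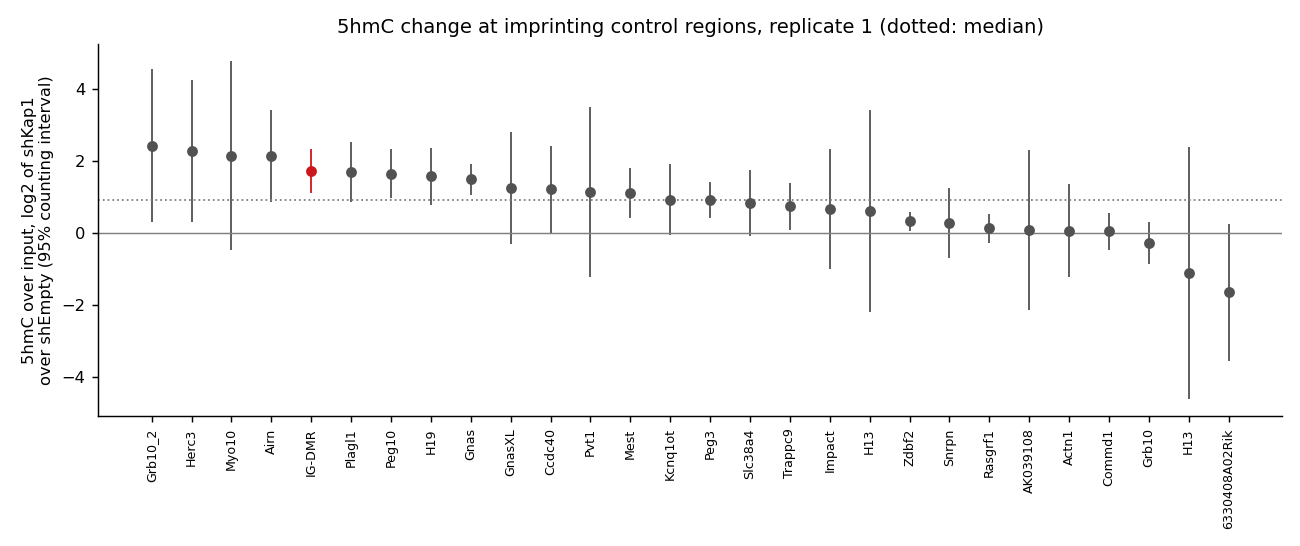
Change of the 5hmC to input ratio on Kap1 knockdown in replicate 1 (y axis, log2 of shKap1 over shEmpty, with 95% counting intervals) at the 28 ICRs with at least 10 input reads, in descending order and named as in the deposited list. The IG-DMR (red) lies at 1.72, above the median of 0.91 (dotted), with an interval of 1.12 to 2.33.

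Within the IG-DMR, the KAP1-dependent H3K9me3 region at its proximal side (chr12:110764401-110765799) went from 17 to 51 5hmC reads (change 1.52, interval 0.40 to 2.63). The KAP1-bound region (chr12:110764736-110767160) went from 31 to 91 reads (1.31, 0.48 to 2.14). The H3K4me3 region (chr12:110765890-110767017), which holds the printed window, went from 18 to 54 reads (0.87, -0.26 to 2.00). The KAP1-bound region overlaps both of the others and shares reads with them. Input reads were 16 to 56 per region, and the intervals of the 3 changes overlap. In replicate 2 read by its file names the changes were 1.16, 0.55 and 0.12 in the same order, and read by its labels, against the H3K4me3 shares given above, they had the opposite sign.

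Along the whole cluster 61 deposited regions were counted, the IG-DMR included. In replicate 1, 4 of 13 H3K4me3 regions, 2 of 27 H3K27me3 regions, 3 of 8 KAP1-dependent H3K9me3 regions and 4 of 12 KAP1-bound regions had changes of at least 2-fold upwards, against 19.7%, 9.50%, 31.0% and 33.6% of all such regions in the genome. None of them had a 2-fold lower value in that replicate. In replicate 2 read by its file names, the reading whose H3K4me3 shares are like those of replicate 1, the counts were 3, 1, 5 and 4 upwards and none downwards, and read by its labels they were 3, 1, 5 and 4 downwards. No KAP1-independent H3K9me3 region lay in the stretch. The largest change of replicate 1 was that of an H3K9me3 region distal to the IAPEz elements (chr12:111171601-111172799, 90 to 170 5hmC reads, change 2.11, interval 1.18 to 3.04). Its input reads were 30 with shEmpty and 16 with shKap1, so that part of this change lies in the lower input. In replicate 2 by file names its change was 1.25, below the 2.17 of a KAP1-bound region over the longer IAPEz element. The H3K9me3 region over the start of the longer IAPEz element (chr12:111138401-111143399) changed by 1.20 (0.69 to 1.72), and the one over the shorter element (chr12:111058801-111062599) by 0.94 (0.40 to 1.48).

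At the promoters, the H3K4me3 region of Dlk1 went from 10 to 28 5hmC reads (1.88, interval 0.53 to 3.24), that over Dio3 and Dio3os from 9 to 30 (1.33, 0.16 to 2.51) and that over the Meg3 start from 95 to 179 (0.80, 0.10 to 1.49). The H3K4me3 region at the Begain start had 28 reads in both libraries (0.07, -0.91 to 1.06), and the KAP1-bound region over the Meg3 start went from 12 to 26 reads (0.80, -0.69 to 2.30), both with intervals that include 0. In replicate 2 read by its file names, the changes of these regions were 1.61, 1.235, 0.46, 0.58 and 0.68 in the same order, with the opposite sign by its labels. The region with the most 5hmC relative to input in control cells was an H3K27me3 region between Dlk1 and the IG-DMR (log2 ratio 2.29 with shEmpty and 1.91 with shKap1), whose change of -0.39 had an interval of -0.93 to 0.16. In replicate 2 read by its file names the change of this region was -0.9997, just short of the 2-fold used for the counts above.

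**Figure D5:**
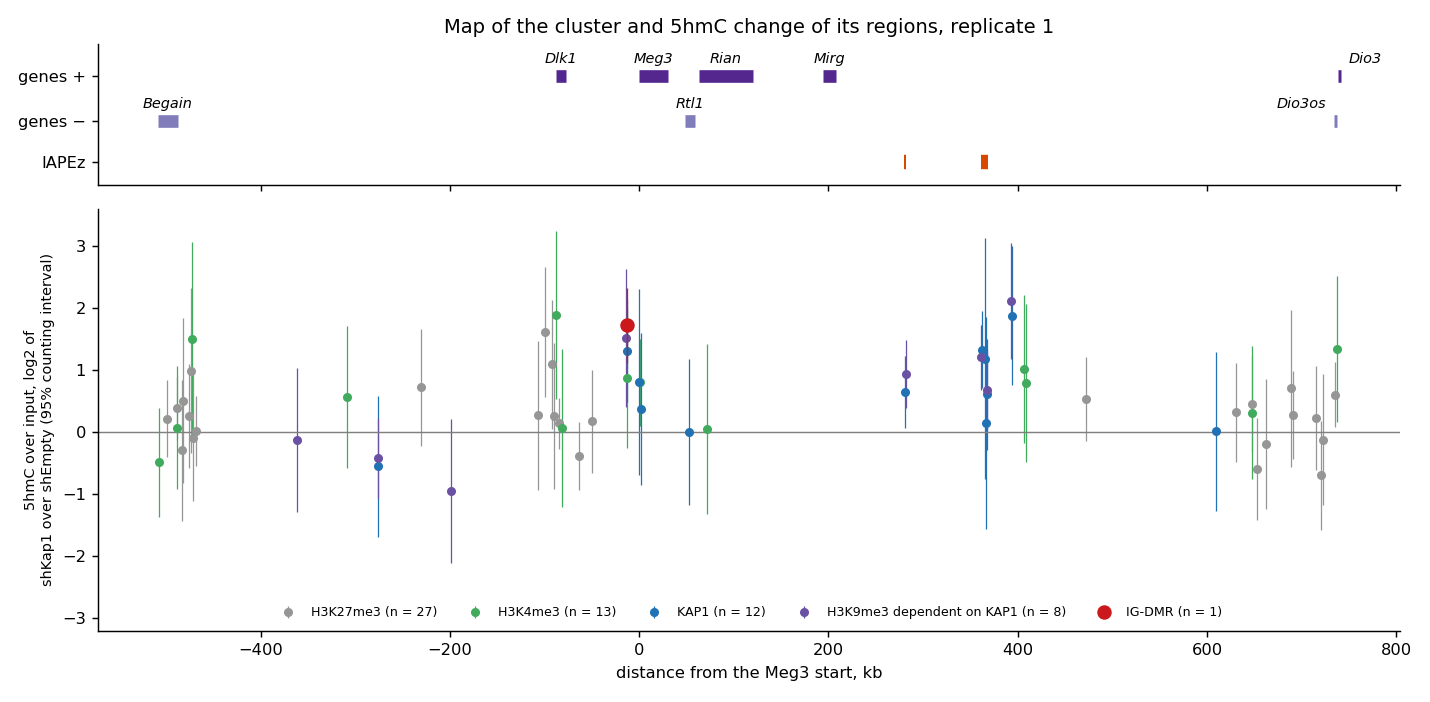
Top: genes on either strand and both IAPEz elements, by distance from the Meg3 start in kb. Bottom: change of the 5hmC to input ratio on Kap1 knockdown in replicate 1 (y axis, log2, with 95% counting intervals) of the deposited regions, coloured by type. The IG-DMR (red, 1.72) and the H3K9me3 regions over both IAPEz elements lie above 0. The H3K9me3 regions between Begain and Dlk1 lie below 0 (-0.13, -0.42 and -0.95), with intervals that all include 0. In replicate 2 read by its file names they had changes of 0.87, -0.50 and -0.68. The 27 H3K27me3 regions of the stretch have a median of 0.26.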

How the data were processed

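Gene counts were deposited as raw counts per Ensembl gene. The authors aligned stranded poly(A) RNA-seq reads to mm9 with HISAT2, kept unique alignments and counted exons by strand with featureCounts, and counted TE integrants of a merged RepeatMasker track and hMeDIP regions with bedtools (per the labels, HISAT2 2.0.1, featureCounts 1.5.1 and bedtools 2.25). The peak scores deposited by the authors came from MACS (H3K4me3) and SICER (H3K27me3), per replicate. From these, any gene or TE whose reads summed to 16 or more in the RNA libraries entered a fit over all 6 groups with edgeR 4.0.16 (robust quasi-likelihood, TMM, gene library sizes for TEs). Adjusted p values are Benjamini-Hochberg values over all genes or all TEs. SE is the log2 fold change over the root of F. 5hmC ratios had 1 read added to each count and were scaled to the reads in all region sets. Peaks were matched to gene starts by an overlap of at least 1 bp with 1 kb on either side. The depth was 18108431 to 29373696 reads on genes per RNA library, and intervals and floors cover counting error only. The scripts were tested on simulated data.

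The members, lists and tests were chosen with earlier results of these data known. Named genes were the 5 members, every cluster gene with at least 16 reads (described by count where not named), 8 flanking genes, 19 regulators, marker lists and the 5 genes most like Meg3. Same-numbered libraries deviated together, with every pair above 0.1, between WT shEmpty and WT shKap1 (correlations 0.118 to 0.274) and between WT shEmpty and DNMT TKO shEmpty (0.135 to 0.317), and in no other pair of groups. In neither of these did every library correlate best with the one of its own number. That held only between WT shKap1 and DNMT TKO shEmpty (0.0688 to 0.143). The study's own test was limma-voom, which served as an alternative (limma 3.58.1), as did DESeq2 1.42.0.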

Additional observations from a re-analysis of the deposited data

Results flagged for a closer look

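The knockdown effect differed between DNMT TKO and WT cells, by the interaction term of edgeR's quasi-likelihood fit over all genes, for Meg3 (log2 difference -1.48, adjusted p = 1.47e-05), Rian (-1.46, adjusted p = 3.6e-05), Mirg (-1.17, adjusted p = 0.000827) and Dio3 (1.35, adjusted p = 0.00221). In WT cells all 3 shKap1 libraries were above the shEmpty libraries for Meg3 and Rian, and in DNMT TKO cells all 3 were below for Meg3, Rian and Mirg. Trim28 itself was less depleted in DNMT TKO cells, and the part of that in these differences was not tested.

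Between TET TKO and WT cells the effect differed for Meg3 (log2 difference -0.598, adjusted p = 0.0486, below the 2-fold of a call), with shKap1 libraries above shEmpty libraries in both genotypes.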

How the results depend on the processing

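With the replicate block the number of members called was the same in all 9 comparisons. Without the 2-fold limit, 5 members were called on knockdown in DNMT TKO cells, 3 in TET TKO cells, 1 for the TET TKO interaction, and 5 between DNMT TKO and WT cells with either hairpin. Leaving out each library in turn gave 1 to 3 calls for the knockdown in DNMT TKO cells, 0 to 1 for DNMT TKO against WT with shEmpty (0 without WT shEmpty replicate 2 or DNMT TKO shEmpty replicate 1, and Meg3 at 1.01 in place of Dlk1 without WT shEmpty replicate 1) and 1 to 2 with shKap1 (2, with Dlk1 at 1.13 or 1.07, without WT shKap1 replicate 3 or DNMT TKO shKap1 replicate 3). The cluster TEs called in WT cells numbered 6 with DESeq2, 7 with no filter, 6 with at least 160 reads and 7 to 15 without single libraries (fewest without WT shEmpty replicate 3). In DNMT TKO cells they numbered 5, 9, 2 and 9 to 13 (9 without shEmpty replicate 1 or 3 or shKap1 replicate 3), and in TET TKO cells 2 with DESeq2 and 2 with at least 160 reads. The 5hmC change of the IG-DMR was 1.01 when scaled to all ICR reads, 1.34 when scaled to H3K4me3 reads, 1.36 without the largest region in the totals (chosen after seeing the data), -1.12 with replicate 2 read by its labels and 1.12 with it read by its file names. The cause of these shifts was not tested.

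Some values turned sign, and 1 of Rtl1 reached 0, when single libraries were left out or, where named, with limma-voom or the replicate block. The knockdown of Begain in DNMT TKO cells ranged from -0.188 to 0.262 (-0.0223 without DNMT TKO shEmpty replicate 3). The DNMT TKO interaction ranged from -0.281 to 0.0574 for Dlk1 (also 0.0175 and 0.0311) and from -1.89 to 0.37 for Rtl1. The TET TKO interaction ranged from -0.35 to 0.353 for Dio3os (also -0.0528, -0.0447 and -0.142, and -0.213 with limma-voom), from -0.282 to 0.271 for Dio3 (also 0.0555 and 0.0354) and from -0.18 to 0.0314 for Mirg (also 0.0157 and 0.00506). The shEmpty difference of Rtl1 between DNMT TKO and WT ranged from 0 to 2.26 and rests on 1 read, in DNMT TKO shEmpty replicate 2. Both ranges of Rtl1 come from too few reads for a fold. The shKap1 difference of Begain between TET TKO and WT ranged from -0.156 to 0.202 (also -0.0678, and -0.0177 with the replicate block). The interaction of Dio3os in DNMT TKO cells had an adjusted p above 0.05 when any 1 of 6 libraries was left out, with values from 1.79 to 2.46. Depth limits Dlk1, Rtl1, the shorter IAPEz element and the parts of the IG-DMR, where counts are low.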

Other observations

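The 4 hMeDIP libraries of replicate 2, which the labels and file names assign differently, had 42, 108, 110 and 111 reads at the IG-DMR, or 4.09, 18.5, 8.75 and 17.9 CPM, in the order of their labels (input shEmpty, input shKap1, 5hmC shEmpty, 5hmC shKap1). Their file names give them as 5hmC shEmpty, input shEmpty, 5hmC shKap1 and input shKap1. In the same order, 6.25%, 19.3%, 7.19% and 18.5% of their reads fell in H3K4me3 regions, against 19.2% and 17.6% in the inputs and 7.88% and 9.50% in the 5hmC libraries of replicate 1.

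A MERVL-int element between Begain and Dlk1 (chr12:110388431-110391255, minus strand) had 0 reads in every WT and DNMT TKO shEmpty library and 0 and 2 in the TET TKO ones. With shKap1 it had 3, 5 and 2 reads in WT, 1, 3 and 2 in DNMT TKO and 10 and 9 in TET TKO cells, and edgeR called it up in all 3 genotypes. All but 2 of its 37 reads were in shKap1 libraries, through which it passed the minimum of 16 reads, and the DNMT TKO call (adjusted p = 0.0472) rests on 6 reads against 0. The 2-cell-like markers, a list of another cell state in which MERVL is known to be active, had higher summed levels with shKap1 in all 3 genotypes, and their part in these reads was not tested.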
